A study of Rattus norvegicus with 12 samples.

Results

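Fibroblasts are the main matrix-producing cells of the heart. When they are activated they become myofibroblasts, which assemble actin stress fibres and secrete more matrix. Cultures of newborn heart muscle cells usually carry some of them along, so their marker genes are commonly read as a measure of the non-myocyte cells in such a culture. The 10 genes described here were chosen by symbol from a count table of 32883 rat genes: the identity markers Pdgfra, Tcf21 and Thy1, the matrix genes Dcn, Lum, Dpt, Postn and Fn1, and the actin cytoskeleton genes Acta2 and Tagln. Each symbol matched 1 row, and all 10 passed the filter on low counts, which left 14063 genes tested. Immature cardiomyocytes also make Acta2 and Tagln mRNA, and many cell types make Fn1.

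The cells were primary ventricular cardiomyocytes of newborn rats, kept for 2 days with an adenovirus that carried LacZ, a bacterial reporter gene, or human KAT6A, a histone acetyltransferase. KAT6A was the wild-type form (WT), the K815R mutant, which cannot be acetylated at that lysine, or the K815Q mutant, which imitates acetylation there. All 4 groups therefore received a virus, no group was left uninfected, and each has 3 libraries of poly(A) RNA. The labels do not say whether the 3 came from separate cell isolations, so p-values measure the spread between libraries, which may be technical. The label calls for raised Kat6a in the K815Q group, but rat Kat6a stood at 46.3 ± 3.35 CPM there against 48.1 ± 4.75 with LacZ (SD, n = 3 each). The group is named below as the K815Q-labelled libraries, and directions given for it rest on the label. With WT and K815R, Kat6a stood at 93 ± 12.3 and 108 ± 11.7 CPM (SD, n = 3).

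Levels are in CPM, counts scaled to a common total over the tested genes after TMM scaling of the libraries. Gene counts ran from 19102048 to 25451686 per library, and the lowest count of any of the 10 genes in any library was 310, for Tcf21, which carries a counting error of 5.68%. Defining markers of heart muscle were abundant in every library: Tnnt2, the cardiac troponin T gene, lay between 7884 and 9051 CPM and Actn2, sarcomeric alpha-actinin, between 1262 and 1452. The fibroblast genes were thus measured beside a large cardiomyocyte signal. In bulk RNA, fewer cells of a type and less RNA per cell cannot be told apart.

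Sequence before the transcription start is shown first, for Dpt, Postn, Pdgfra and Tcf21, the genes that differed among the groups. Whether the letters bear on those differences was not tested. RefSeq's promoter table of assembly GRCr8 held 6 of the 10 genes, namely Pdgfra, Tcf21, Lum, Dpt, Postn and Acta2. Thy1, Dcn, Fn1 and Tagln had no entry. All sequences read 5′ to 3′ on the gene's strand. Capitals mark TATAAA and CANNTG (the E-box letters), both searched on either strand; in Dpt the last E-box ends where TATAAA begins. The Dpt and Tcf21 runs cover the 250 bases before the start (chr13:79656091-79656340 and chr1:24520249-24520498, both plus strand). The Pdgfra run (chr14:33408605-33408766, minus strand) is the part of that window outside the annotated gene, and the Postn run (chr2:140678005-140678034, plus strand) is 30 bases around its TATAAA.
Dpt: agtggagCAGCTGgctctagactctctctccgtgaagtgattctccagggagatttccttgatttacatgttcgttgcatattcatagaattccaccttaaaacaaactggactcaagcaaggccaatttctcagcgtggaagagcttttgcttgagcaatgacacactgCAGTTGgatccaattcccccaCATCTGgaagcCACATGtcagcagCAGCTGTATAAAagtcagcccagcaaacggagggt
Postn: agcccagagctcTATAAAttcagctctcta
Pdgfra: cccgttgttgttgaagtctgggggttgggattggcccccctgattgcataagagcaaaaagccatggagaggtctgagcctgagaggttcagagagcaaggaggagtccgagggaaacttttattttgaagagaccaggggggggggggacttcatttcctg
Tcf21: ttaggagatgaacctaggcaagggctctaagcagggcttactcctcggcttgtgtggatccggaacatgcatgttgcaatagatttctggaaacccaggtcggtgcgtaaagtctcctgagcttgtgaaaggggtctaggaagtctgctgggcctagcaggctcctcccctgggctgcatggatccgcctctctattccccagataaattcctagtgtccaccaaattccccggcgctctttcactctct

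TATAAA occurred in the window of Dpt (29 bases before the start) and of Postn (44 bases before the start used in the table, which lies inside the annotated gene). It occurred in none of the other 4 windows and in 12.9% of all 33469 windows of the same length. CANNTG occurred 5 times in the Dpt window, 2 times in that of Postn, and once each in those of Pdgfra, Lum and Acta2; it was absent from the Tcf21 window and present in 65.5% of all windows. The CArG box is the serum response factor motif of many smooth muscle genes. It was searched only as CC, 6 letters A or T, and GG. That exact pattern occurred in none of the 6 windows and in 1.5% of all. Sites that depart from it were not searched, so its absence does not show that Acta2 lacks such sites. The palindrome GTCTAGAC, which holds the letters that SMAD proteins bind, occurred in none of the 6 and in 0.2% of all. These matches are descriptions of the letters in these windows.

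Among the 10 genes, 4 differed among the groups: Pdgfra, Tcf21, Dpt and Postn were called by edgeR's test for any difference (adjusted p of 6.44e-05, 0.0118, 0.00359 and 6.63e-04), where 8.13% of all tested genes were called. A gene is called at an adjusted p under 0.05 over all tested genes. Tcf21 lost this call without LacZ replicate 2 (adjusted p 0.051) and without K815Q replicate 1 (adjusted p 0.0563). Thy1, Dcn, Lum, Fn1, Acta2 and Tagln were not called in this test or in any pairwise comparison. Of 60 pairwise results (10 genes in 6 comparisons), 10 were called. The genes that moved did not move one way: Pdgfra was lowest with WT, where Postn was highest.

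By comparison, 3 of the 10 genes were called in WT against LacZ (2 higher, 1 lower), where 5.34% of tested genes were called, 1.95% higher and 3.39% lower. In K815R against LacZ 0 of 10 were called by edgeR, with 2 at an unadjusted p under 0.05 (2.47% of tested genes called, 0.74% higher and 1.74% lower). DESeq2 called 0 as well. In the K815Q-labelled libraries against LacZ 3 were called, all higher (7.85% of tested genes, 2.87% higher and 4.98% lower). Between the forms, K815R against WT gave 1 higher and 2 lower (2.2% of tested genes, 1.32% higher and 0.882% lower), labelled K815Q against WT 1 higher (1.07%, 0.718% higher and 0.356% lower), and K815R against labelled K815Q 0, with 5 at an unadjusted p under 0.05 and 0 called by DESeq2 (0.363%, 0.213% higher and 0.149% lower). The median log2 fold change of the 10 genes was within -0.04 to 0.06 in all 6 comparisons, with single genes on either side of 0. The comparisons share libraries, so their counts are not independent.

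**Figure D1:**
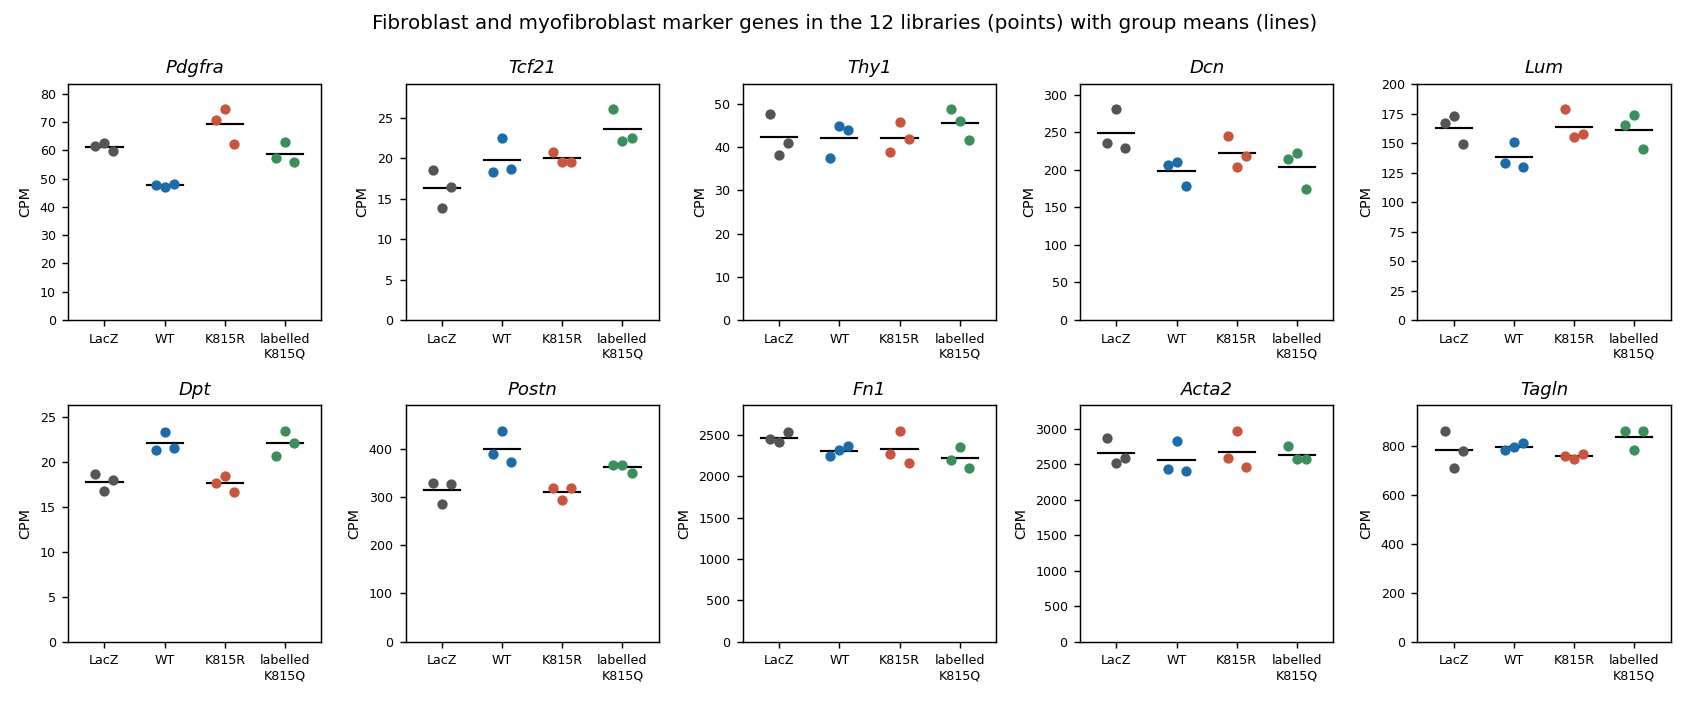
Level in CPM (vertical axis, from 0) of the 10 genes in each group, with 1 point per library and a line at the mean of 3 libraries. Pdgfra with WT lies at 47.1 to 48.1 CPM, below every other library, while Postn with WT lies at 373 to 437 CPM, above every other library; Acta2 overlaps between all 4 groups.

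Pdgfra encodes the PDGF receptor alpha, the most used surface marker of resident cardiac fibroblasts. Its level was 61.5, 62.6 and 59.6 CPM in the LacZ libraries and 47.7, 47.1 and 48.1 with WT. With K815R it was 70.7, 74.6 and 62.3 CPM, and in the K815Q-labelled libraries 57.3, 63 and 55.8. All 3 WT libraries were thus below all 9 others. The lowest K815R library lay within the LacZ range.

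Pdgfra was lower with WT than with LacZ, at a log2 fold change of -0.36 (SE 0.0633), or 0.78-fold (edgeR adjusted p 0.00109). K815R exceeded WT by 0.54 (SE 0.0631), or 1.45-fold (edgeR adjusted p 7.62e-05). Both calls were kept in all 12 fits with 1 library removed. The K815Q-labelled libraries exceeded WT by 0.30 (SE 0.0641, edgeR adjusted p 0.0189), but only 1 of the 6 fits that left out a WT or labelled K815Q library kept that call, with values from 0.25 to 0.34. From lowest to highest the order was WT, labelled K815Q, LacZ and K815R. The last 3 groups were not separated: K815R minus LacZ was 0.18 (95% interval 0.05 to 0.31, edgeR adjusted p 0.155) and K815R minus labelled K815Q was 0.24 (0.11 to 0.37, adjusted p 0.1). The first of these was called without K815R replicate 3 (0.25, edgeR adjusted p 0.0466). The second was called without K815R replicate 3 (0.31, adjusted p 0.0415) and without K815Q replicate 2 (0.29, adjusted p 0.0456).

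Tcf21 encodes a basic helix-loop-helix transcription factor needed for the formation of cardiac fibroblasts. It stood at 18.6, 13.8 and 16.5 CPM with LacZ, 18.3, 22.5 and 18.7 with WT, 20.8, 19.6 and 19.6 with K815R, and 26.1, 22.1 and 22.5 in the K815Q-labelled libraries. Every labelled K815Q library was above every LacZ library, and LacZ replicate 2 was the lowest of all 12. Tcf21 was higher in the K815Q-labelled libraries than with LacZ by a log2 fold change of 0.53 (SE 0.0994), or 1.44-fold (edgeR adjusted p 0.00236), the largest change from LacZ among the 10 genes, and the call was kept in all 12 fits with 1 library removed. With WT and K815R the values were 0.28 (SE 0.101) and 0.29 (SE 0.0997), not called (edgeR adjusted p 0.119 and 0.156). Without LacZ replicate 1 both were called, at 0.38 and 0.39 (edgeR adjusted p 0.0382 and 0.0488). The K815Q-labelled libraries did not differ by the test from WT (0.25, 95% interval 0.04 to 0.46) or from K815R, which lay below them (-0.24, -0.44 to -0.03). Higher Tcf21 was therefore not shown to be particular to the K815Q-labelled libraries.

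Thy1, the gene of a surface glycoprotein on fibroblasts and several other cell types, was the flattest identity marker. Its group means were 42.3 ± 4.86 CPM with LacZ, 42 ± 4.07 with WT, 42.2 ± 3.46 with K815R and 45.5 ± 3.54 in the K815Q-labelled libraries (SD, n = 3). The 6 log2 fold changes ran from -0.11 to 0.11, and their 95% intervals reached from -0.29 to 0.30. Pdgfra and Tcf21 thus ordered the groups differently, and Thy1 did not separate them.

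Among the matrix genes, Postn encodes periostin, a secreted protein of collagen assembly that activated fibroblasts make in quantity. Postn stood at 328, 286 and 326 CPM with LacZ, 388, 437 and 373 with WT, 319, 294 and 318 with K815R, and 366, 367 and 350.2 in the K815Q-labelled libraries. LacZ and K815R overlapped. The K815Q-labelled libraries were above every LacZ and K815R library and below every WT library.

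Postn was higher with WT than with LacZ by a log2 fold change of 0.35 (SE 0.0607), or 1.27-fold (edgeR adjusted p 0.00104). K815R was lower than WT, at a log2 fold change of -0.36 (SE 0.0607), or 0.78-fold (edgeR adjusted p 0.00226). Both calls were kept in all 12 fits with 1 library removed. K815R and LacZ differed by -0.01 (95% interval -0.14 to 0.11). In the K815Q-labelled libraries Postn was higher than with LacZ by 0.20 (SE 0.0608, edgeR adjusted p 0.0421). That call was fragile: 1 of the 6 fits without a LacZ or labelled K815Q library kept it, and without LacZ replicate 2 the value was 0.14 (adjusted p 0.217). Leaving out WT replicate 1 or K815R replicate 3, of groups outside this comparison, also ended it (0.20 in both, adjusted p 0.0511 and 0.0566). The K815Q-labelled libraries were not separated by the test from WT (-0.15, 95% interval -0.27 to -0.02), nor was K815R from them (-0.22, -0.34 to -0.09).

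Dpt encodes dermatopontin, a small matrix protein that binds decorin and fibronectin. It stood at 18.7, 16.8 and 18 CPM with LacZ, 21.3, 23.4 and 21.6 with WT, 17.7, 18.5 and 16.7 with K815R, and 20.7, 23.5 and 22.1 in the K815Q-labelled libraries. The 6 libraries of WT and labelled K815Q were above the 6 of LacZ and K815R without overlap. Against LacZ the log2 fold change was 0.31 with WT (SE 0.0748, edgeR adjusted p 0.0153) and 0.31 in the K815Q-labelled libraries (SE 0.0751, edgeR adjusted p 0.0134), each 1.24-fold. Each call was kept in 10 of the 12 fits with 1 library removed. The first was lost without LacZ replicate 2 (0.26) and without WT replicate 2 (0.27), the second without LacZ replicate 2 (0.27) and without K815Q replicate 2 (0.26).

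K815R was lower in Dpt than WT, at a log2 fold change of -0.33 (SE 0.0754), or 0.8-fold (edgeR adjusted p 0.024). Leaving out WT replicate 1, 2 or 3 or K815R replicate 1 or 3 ended this call, with values from -0.35 to -0.28 (adjusted p 0.0511 to 0.12). K815R minus labelled K815Q was also -0.33 and missed the threshold (95% interval -0.48 to -0.17, edgeR adjusted p 0.0572).

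**Figure D2:**
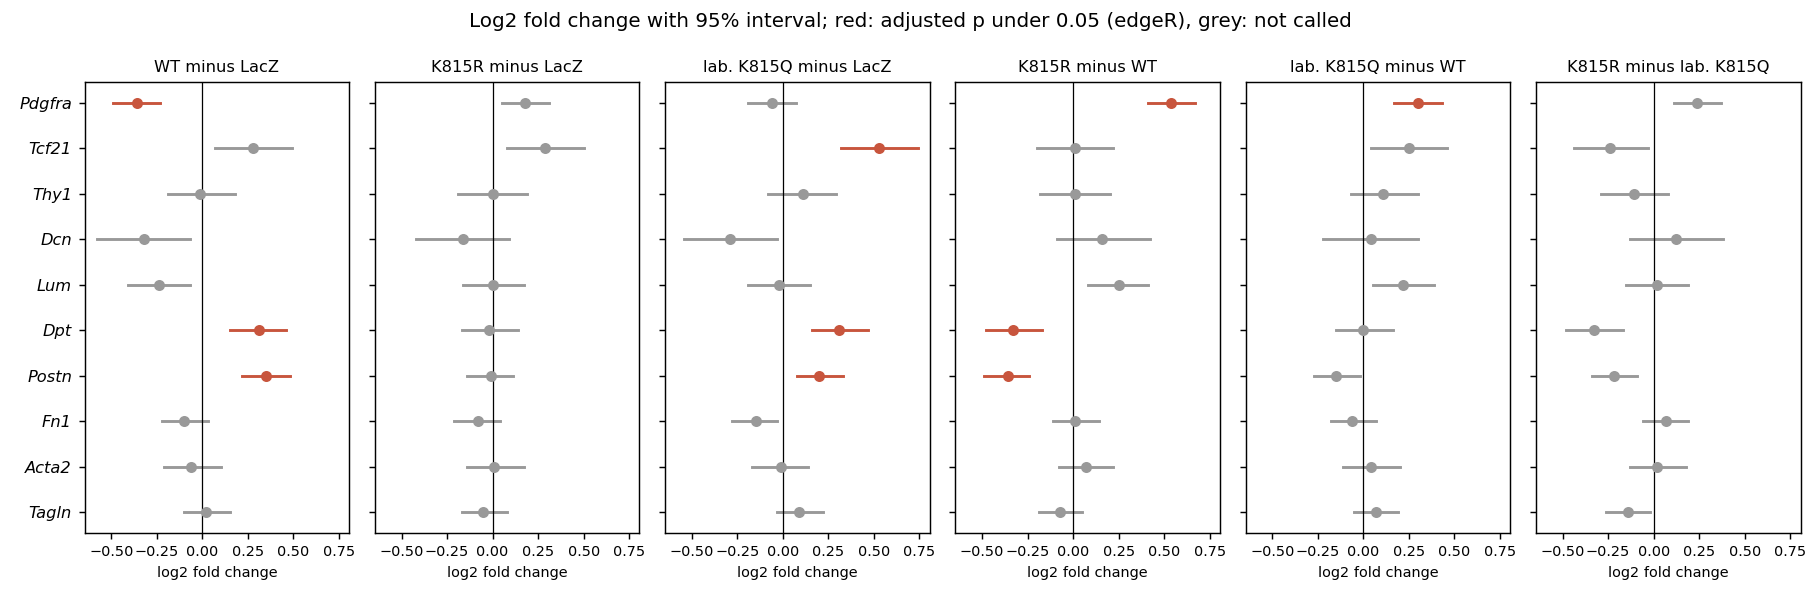
Log2 fold change (horizontal axis) of each gene in the 6 comparisons, as a point with its 95% interval; red marks an adjusted p under 0.05 by edgeR. In WT minus LacZ, Pdgfra lies at -0.36 and Postn at 0.35; K815R minus LacZ has no red point.

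Dcn and Lum encode decorin and lumican, leucine-rich proteoglycans that regulate the thickness of collagen fibrils, and no protein-coding gene lies between them in the RefSeq annotation of the rat genome. Dcn stood at 236, 281 and 229 CPM with LacZ, 206, 211 and 178 with WT, 245, 204 and 218 with K815R, and 214, 223 and 174 in the K815Q-labelled libraries. All WT and K815Q-labelled libraries were below all LacZ libraries, but the spread within groups was large. The log2 fold change from LacZ was -0.32 with WT (95% interval -0.58 to -0.07, edgeR adjusted p 0.151), -0.29 in the K815Q-labelled libraries (-0.54 to -0.03, adjusted p 0.16) and -0.16 with K815R (-0.42 to 0.09, adjusted p 0.607), none of them called.

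Lum stood at 167, 173 and 149 CPM with LacZ, 133, 151 and 130.1 with WT, 179, 155 and 158 with K815R, and 165, 174 and 145 in the K815Q-labelled libraries. WT had the lowest mean of Lum, as it had of Pdgfra, but WT replicate 2 reached into the LacZ range. The log2 fold change with WT was -0.24 from LacZ (95% interval -0.41 to -0.07, edgeR adjusted p 0.0953), and K815R minus WT was 0.25 (0.08 to 0.41, adjusted p 0.143). Both lay on the uncalled side, and the first was called without K815Q replicate 3 (adjusted p 0.0469) and by DESeq2 (-0.25, adjusted p 0.0388). Across the 12 libraries Dcn and Lum had a Pearson r of 0.76, and 0.88 after each group's mean was removed, so they also varied together among replicates. These libraries share depth and scaling, so r is a description.

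Fn1 encodes fibronectin, the glycoprotein on which other matrix is laid down. It stood at 2465 ± 60.1 CPM with LacZ, 2308 ± 62.8 with WT, 2327 ± 202 with K815R and 2218 ± 128 in the K815Q-labelled libraries (SD, n = 3). The K815Q-labelled libraries came nearest to a difference from LacZ, with a log2 fold change of -0.15 (95% interval -0.28 to -0.03, edgeR adjusted p 0.119). The 6 log2 fold changes ran from -0.15 to 0.07.

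Acta2, smooth muscle alpha-actin, is the standard marker of the myofibroblast, and Tagln, transgelin, is an actin-binding protein induced with it. Acta2 stood at 2862, 2516 and 2583 CPM with LacZ and 2429.8, 2825 and 2401 with WT. It stood at 2591, 2969.8 and 2466 CPM with K815R and 2761, 2568 and 2565 in the K815Q-labelled libraries. The 4 groups overlapped, and the 6 log2 fold changes ran from -0.06 to 0.07 with 95% intervals between -0.21 and 0.22. Tagln ran from 708 to 862 CPM with LacZ, 782 to 811 with WT, 747 to 767 with K815R and 785 to 860 in the K815Q-labelled libraries. Its 6 log2 fold changes ran from -0.14 to 0.09, with intervals between -0.26 and 0.22, none called. The K815R libraries lay below the WT libraries in Tagln without overlap, at a log2 fold change of -0.07. They also lay below the K815Q-labelled libraries without overlap, at -0.14 (95% interval -0.26 to -0.02, edgeR adjusted p 0.366). Reads that align to more than 1 place were not counted, so Acta2, which has close actin paralogs, was counted from part of its reads.

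Since fold changes of this size can depend on scaling, ratios of read counts between pairs of these genes within a library, which need none, were examined. The pairs were chosen after the values were seen, and no test was made. There were 5.13 ± 0.479 Postn reads per Pdgfra read with LacZ, 8.39 ± 0.79 with WT, 4.52 ± 0.578 with K815R and 6.16 ± 0.299 in the K815Q-labelled libraries (SD, n = 3). The WT libraries, at 7.76 to 9.27, overlapped no other group, and the K815Q-labelled libraries, at 5.82 to 6.38, lay between WT and LacZ. Tcf21 reads per Pdgfra read ran from 0.384 to 0.478 with WT and 0.351 to 0.455 in the K815Q-labelled libraries, above the 0.221 to 0.303 of LacZ and 0.263 to 0.314 of K815R. Dpt reads per Dcn read separated the same groups, at 0.104 to 0.121 and 0.0968 to 0.127 against 0.0597 to 0.0793 and 0.0723 to 0.0906.

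**Figure D3:**
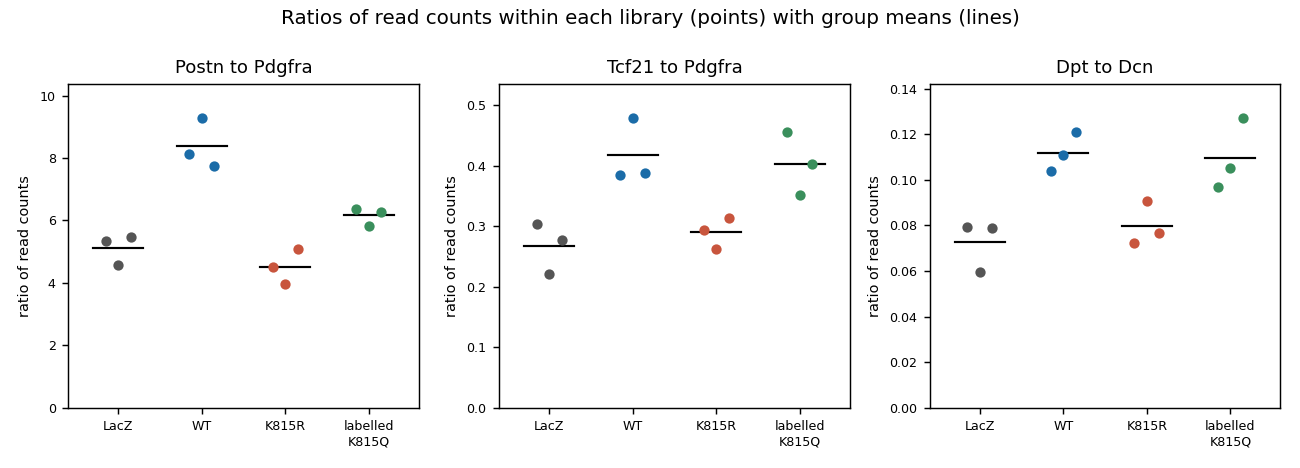
Ratio of read counts of 2 genes within each library (vertical axis, from 0; points are libraries, lines group means of 3). Postn to Pdgfra lies at 7.76 to 9.27 with WT and at 3.95 to 5.1 with K815R; for Tcf21 to Pdgfra and Dpt to Dcn, WT and labelled K815Q lie above LacZ and K815R.

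The genes most like each of 3 members were found among 10260 others of at least 5 CPM by Pearson r over the 12 libraries. For Pdgfra these were Dnm1 (r = 0.94), Pygl (0.935) and Lox (0.926). Lox encodes lysyl oxidase, which cross-links collagen and elastin, and had group means of 158 CPM with LacZ, 122 with WT, 174 with K815R and 149 in the K815Q-labelled libraries. For Postn they were Clic2 (0.956), Phf23 (0.948) and Nars (0.943), and Clic2 stood at 91.9, 122, 95.4 and 116 CPM in the same order. For Acta2, which varied little, they were Prag1 (0.884), Fnbp1l (0.828) and Cap1 (0.824). Within the 10 genes the most alike pair over all libraries was Dpt and Postn (0.86) and the most opposed Pdgfra and Postn (-0.82). With group means removed these were 0.45 and -0.28.

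A wider list of 27 genes of activated fibroblasts and myofibroblasts also moved both ways. In WT against LacZ 3 of 27 were higher and 4 lower, beside 1.95% and 3.39% of all tested genes. Cilp, a matrix protein gene, rose from 11.1 to 17.5 CPM (log2 fold change 0.66, SE 0.0883, edgeR adjusted p 6.48e-05), and Scx, a tendon and matrix transcription factor, from 29.3 to 36.5 (0.31). The osteopontin gene Spp1 rose by 0.22. The lysyl oxidase genes Loxl3 and Lox fell, with log2 fold changes of -0.55 and -0.37, and so did Tnc, the tenascin C gene, at -0.29.

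In K815R against LacZ 2 of these 27 genes were higher and 2 lower (0.74% and 1.74% of tested genes). Scx was among the higher (0.25, edgeR adjusted p 0.0359), and the lower were Tnc at -0.41 and Loxl3 at -0.51. In the K815Q-labelled libraries 5 were higher and 3 lower (2.87% and 4.98% of tested genes). Among them Scx (0.50), Cilp (0.39) and Cdh11 (0.33) were above LacZ, and Loxl3 (-0.42), Tnc (-0.39) and Loxl2 (-0.28) below. K815R exceeded WT in Lox (0.50, SE 0.0696, edgeR adjusted p 6.13e-04) and Ddah1 (0.27) and was lower in Cilp (-0.74, SE 0.0896, edgeR adjusted p 9.43e-05) and Ccn4 (-0.37). The K815Q-labelled libraries exceeded WT in Cdh11 (0.35), and K815R was below them in Cilp (-0.46). The list's median log2 fold change was between -0.03 and 0.01 in every comparison.

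**Figure D4:**
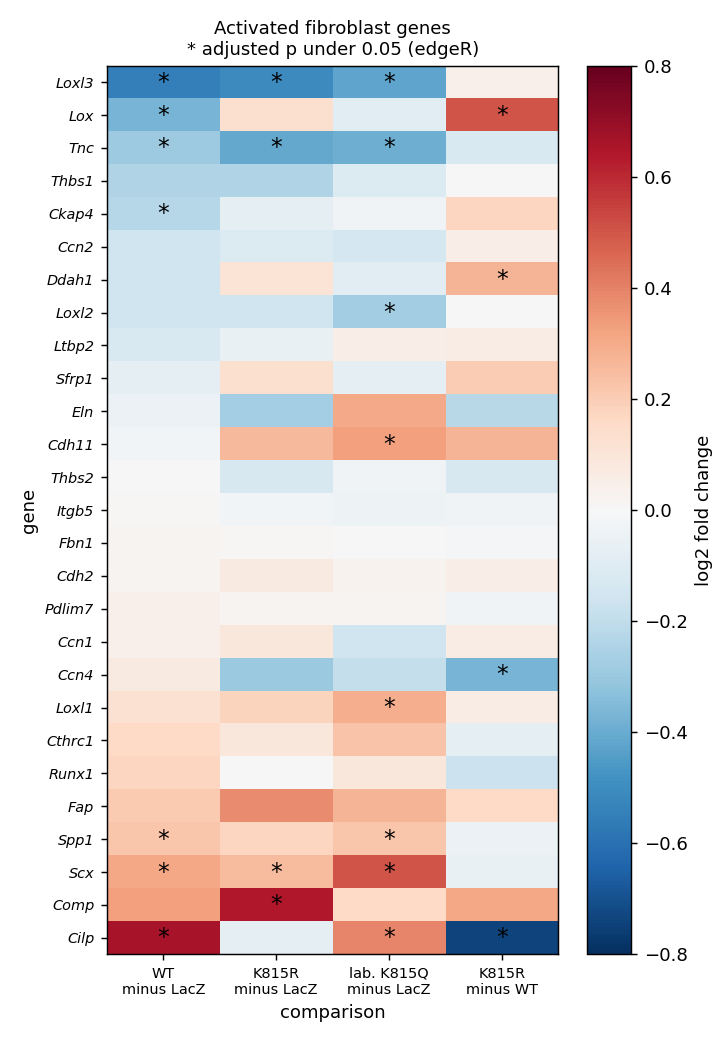
Log2 fold change (colour) of the 27 activated fibroblast genes (rows, ordered by WT minus LacZ) in 4 comparisons (columns); an asterisk marks an adjusted p under 0.05 by edgeR. Loxl3 and Tnc are blue with an asterisk in all 3 comparisons with LacZ, and Cilp is red with WT and blue in K815R minus WT.

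Other fibroblast markers (27 tested genes) gave 1 higher and 1 lower gene in WT against LacZ, Serpinf1 (0.24) and Fstl1 (-0.19). Of all tested genes 1.95% were called higher and 3.39% lower there. K815R against LacZ also gave 1 higher, Fbln1 (0.30), and 1 lower, Fbln2 (-0.20), beside 0.74% and 1.74% of all tested genes. The K815Q-labelled libraries gave 6 higher and 0 lower, beside 2.87% and 4.98% of all tested genes. In them 21 of 27 genes were above LacZ, with a median of 0.09, against a median of 0.0065 over all tested genes. Among the 6 were Islr (0.30), Mgp, the matrix Gla protein gene (0.29), and Pdgfrb, the PDGF receptor beta (0.21). Fbln2, fibulin 2, was lower with K815R than with WT (-0.28) and than in the K815Q-labelled libraries (-0.24). Labelled K815Q against WT gave 0 calls by edgeR, with 22 of 27 genes higher and a median of 0.08. In K815R against labelled K815Q, 20 of 27 were lower, with a median of -0.08. The list's summed level in the K815Q-labelled libraries (22148 to 23321 CPM) overlapped that with LacZ (21441 to 22939).

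Signalling genes around these markers were examined next. Of the 24 TGF-beta pathway genes reported, 1 was called against LacZ in any group, Ltbp4, a latent TGF-beta binding protein gene, which was higher in the K815Q-labelled libraries (0.30). K815R exceeded WT in Smad7 (0.36), an inhibitor of the pathway, and Tgif1 (0.34). Of 13 PDGF and FGF ligands and receptors, Pdgfa, a ligand of the receptor that Pdgfra encodes, was higher than LacZ with K815R (0.24) and in the K815Q-labelled libraries (0.23), and Fgfr3 was higher with K815R than with WT (0.46).

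Serum response factor and its MRTF partners drive Acta2 and Tagln, and of 24 of their cytoskeletal targets 1 was called against LacZ in any group, Zyx with WT (-0.17). Between the forms 1 was called, Fhl1, higher with K815R than in the K815Q-labelled libraries (0.23). Of 7 further small leucine-rich proteoglycans, relatives of Dcn and Lum, Fmod (-0.37) and Prelp (-0.31) were lower with K815R than with LacZ, and 0 were called elsewhere by edgeR. Of 17 partners of fibronectin and periostin, Tnc was lower than LacZ in all 3 groups. Itgav was lower in the K815Q-labelled libraries (-0.35), Fbln1 was higher with K815R than with LacZ, and Sdc1 was higher with K815R than with WT (0.29).

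Markers of other cells were examined beside these changes, and their part in them was not tested. Of all tested genes, 1.95% were called higher and 3.39% lower in WT against LacZ. The shares were 0.74% and 1.74% in K815R and 2.87% and 4.98% in labelled K815Q against LacZ. They were 1.32% and 0.882% in K815R against WT, and 0.213% and 0.149% in K815R against labelled K815Q. The summed level of 19 cardiomyocyte markers overlapped between WT (74664 to 75661 CPM) and LacZ (71102 to 75825), and lay higher with K815R (78794 to 80803). The defining markers overlapped between K815R and LacZ. Tnnt2 ran from 8235 to 9051 and 7884 to 8597 CPM, Myh6 from 12020.4 to 12603 and 12209 to 12442. Actn2 ran from 1352 to 1452 and 1313 to 1369. Single markers moved: with WT, Mybpc3 (0.24), Pln (0.22) and Ldb3 (0.17) were higher than with LacZ and Nppb, the brain natriuretic peptide gene, was lower (-0.31). In the K815Q-labelled libraries Pln was higher (0.24) and Nppb lower (-0.29), and K815R against LacZ gave 0 calls by edgeR. K815R exceeded WT in 4 of the 19, led by Nppb (0.45), Myh7 (0.37) and Nppa (0.29), and exceeded labelled K815Q in Myh7 (0.48) and Nppb (0.42). Of 13 smooth muscle and pericyte markers and 11 endothelial markers, 0 were called in any comparison by edgeR, and their summed levels with WT overlapped those with LacZ. Smooth muscle and pericyte markers summed to 4034 to 4176 CPM in the K815Q-labelled libraries and 4199.8 to 4597 with LacZ. The pericyte marker Rgs5 ran from 26 to 29.9 CPM with LacZ. It ran from 31 to 38.1 with WT and 31.8 to 38.8 with K815R, both without overlap with LacZ. In the K815Q-labelled libraries it ran from 27.4 to 37.1, overlapping LacZ. The smooth muscle marker Myh11 ran from 115 to 126 CPM with LacZ. This overlapped WT (123 to 133), K815R (104 to 121) and the K815Q-labelled libraries (110.5 to 120.4). The 13 macrophage and leukocyte markers summed to 86.4 to 112 CPM with LacZ, 112 to 118 with WT, 112 to 122 with K815R and 121 to 127 in the K815Q-labelled libraries. Lyz2 was called higher in all 3 groups. In the K815Q-labelled libraries 2 were called higher, Lyz2 (0.48) and Fcer1g (0.50, edgeR adjusted p 0.0159), and 1 lower. Schwann and neural crest markers summed to 5.2 to 5.66 CPM with LacZ. Their sums with WT (7.41 to 9.08) and in the K815Q-labelled libraries (6.41 to 7.92) lay above this without overlap. With K815R the sum was 5.6 to 7.06 CPM, overlapping LacZ. Sox10 had 2 to 9 counts per library, and 1 of 4 tested genes was called higher with WT and in the K815Q-labelled libraries. The summed level of epicardial and mesothelial markers overlapped between all groups, with 1 call, Upk1b, lower with K815R than with LacZ (-0.42). The epicardial marker Wt1 ran from 4.81 to 5.38 CPM with WT and 5.08 to 6.42 with LacZ. It ran from 5.86 to 8.67 CPM with K815R and 5.46 to 7.21 in the K815Q-labelled libraries. Upk3b, a further epicardial and mesothelial marker, had only 16 to 29 counts per library. It ran from 0.984 to 1.21 CPM with LacZ, 0.903 to 1.32 with WT and 0.631 to 1.18 with K815R. In the K815Q-labelled libraries it ran from 1.2 to 1.3. Of the 10 tested genes of this list, 4 were higher and 6 lower with K815R than with LacZ.

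Of 23 cell cycle genes, 11 were lower with WT, 10 with K815R and 17 in the K815Q-labelled libraries than with LacZ, and 0 were higher. Of all tested genes 3.39%, 1.74% and 4.98% were called lower in the same order. Their summed level was 603 to 683 CPM with LacZ, 533 to 569 with WT, 518 to 579.9 with K815R and 485 to 555 in the K815Q-labelled libraries. Of 11 genes of acute stress, 1 was called, higher with K815R than with LacZ, where 0.74% of all tested genes were called higher. The medians of these 11 genes were 0.16 to 0.17 above LacZ in the 3 groups.

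**Figure D5:**
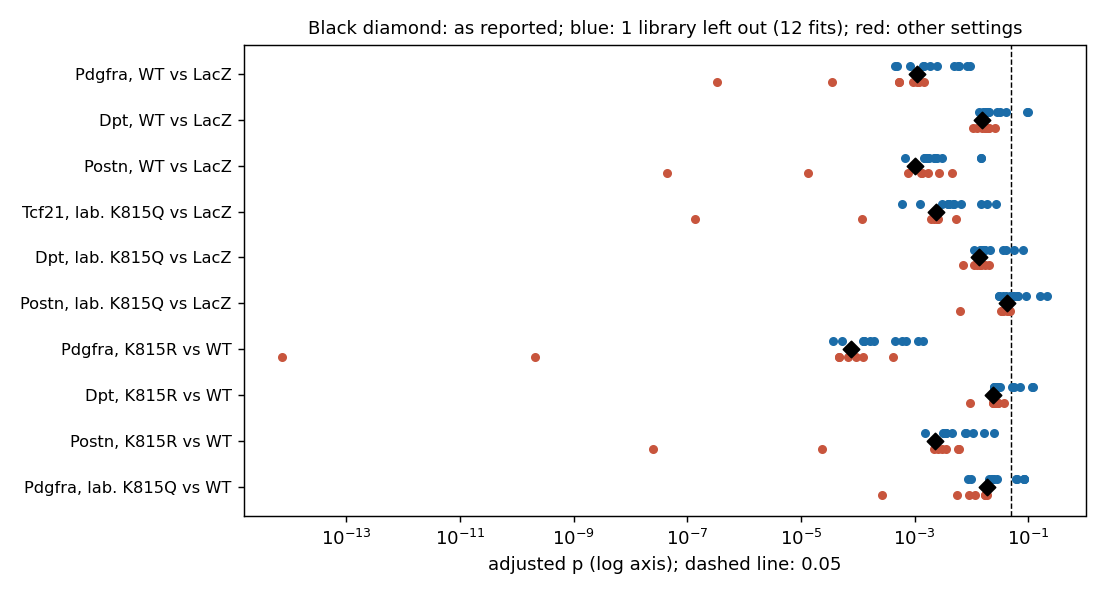
Adjusted p (horizontal log axis) of the 10 called results as reported (black), with 1 of the 12 libraries left out (blue) and under the other settings (red); the dashed line is 0.05. All points of Pdgfra and Postn in WT against LacZ and in K815R against WT, and of Tcf21 in labelled K815Q against LacZ, lie left of the line.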

How the data were processed

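RNA of 12 libraries was sequenced as poly(A)-selected cDNA; the labels describe a strand-specific kit and single reads. The authors deposited 1 table of raw read counts per Ensembl rat gene, with symbols, in which replicates were kept apart. The submitters' processing notes name Trimmomatic 0.39, HISAT2 2.2.1, HTSeq 0.6.1, edgeR and the build Rnor_6.0. The strand setting is not given in the sources used here, so overlapping and antisense genes are uncertain. The last 5 lines of the table are counters that name no gene and were left out: 11.7% to 12.9% of reads were in no feature, 25.6% to 26.9% aligned to several places, 0.461% to 0.5% were ambiguous and 2.69% to 3.06% were unaligned. Gene counts summed to 19102048 to 25451686 per library. Chi-square per degree of freedom between replicates was at least 4.54, so each library was kept as its own replicate.

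Groups and replicate numbers came from the sample titles. Counts were scaled by TMM, filtered by filterByExpr (minimum count 10, total 15) and tested with edgeR 4.0.16 (quasi-likelihood, robust) in R 4.3.3, with all 12 libraries in 1 model and a mean for each group. The Benjamini-Hochberg adjustment ran over all 14063 genes tested. Correlations used log2 CPM with a prior count of 2. All 10 genes are named in every comparison. From 15 lists of related genes, at most 3 called genes of at least 5 CPM are named per comparison and direction, by largest change, and for Pdgfra, Postn and Acta2 the 3 most alike genes. Members and lists were chosen with earlier results of these data known. A gene of the TGF-beta list is not reported here and was left out of that list's counts. On counts simulated for WT against LacZ the procedure was tested on known changes before use. Replicate numbers did not pair the libraries: correlations of same-numbered libraries' deviations ran from -0.13 to 0.12. Other settings tried were scaling by RLE or upper quartile, no filter, 10 counts in every library, DESeq2 1.42.0, a replicate block, fits of only the 6 libraries compared, leaving out each library and, added after the data were seen, leaving out the group labelled K815Q. Sequences came from RefSeq's table of GRCr8, matched by symbol for 6 of 10 genes.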

Additional observations from a re-analysis of the deposited data

How the results depend on the processing

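With 10 genes in 6 comparisons, no called result changed sign under any alternative, and 45 sign changes among uncalled results kept values between -0.07 and 0.09. RLE and upper-quartile scaling moved the median of all genes by at most 0.012 (log2) and changed no call of the 10 genes. All 10 calls were kept under the 7 planned settings other than leaving out libraries and, where it applies, without the group labelled K815Q. Without a filter on low counts, the genes called of the 10 were 5 instead of 3 in WT against LacZ, 1 instead of 0 in K815R against LacZ, 2 instead of 1 in labelled K815Q against WT, 3 instead of 0 in K815R against labelled K815Q, 4 instead of 3 in K815R against WT and 5 instead of 4 in the test for any difference; the cause was not tested. Without the filter, 22491 genes were tested instead of 14063. Of the 22491, 1018, 600, 423, 307, 553 and 2036 were called in the same order. With the filter these were 751, 348, 151, 51, 309 and 1143 of 14063. With the replicate number as a replicate block, 5 were called in WT against LacZ, adding Dcn (-0.33) and Lum (-0.24). The block also added Dcn in labelled K815Q against LacZ (-0.29) and Lum in K815R against WT (0.25), and in the test for any difference Dcn and Lum (6 instead of 4). The libraries share only a number, and the block changed no other call. Lum in WT against LacZ was also called in a fit of only those 6 libraries (adjusted p 0.0371 by edgeR).

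Leaving out 1 library at a time gave 2 to 4 calls in WT against LacZ, 0 to 1 in K815R against LacZ, 1 to 3 in labelled K815Q against LacZ, 2 to 3 in K815R against WT, 0 to 1 in labelled K815Q against WT, 0 to 1 in K815R against labelled K815Q, and 3 to 5 in the test for any difference. Fewer libraries were fitted in each of these. The background counts moved as well, and their ranges below also cover the settings other than leaving out libraries. Over all alternatives, genes called ran from 378 to 1018 in WT, 173 to 600 in K815R and 360 to 1528 in labelled K815Q against LacZ. They ran from 124 to 553 and 50 to 423 in these mutants against WT, 11 to 307 between the mutants, and 650 to 2036 for any difference. The reported counts were 751, 348, 1104, 309, 151, 51 and 1143. In each comparison the highest count came without a filter; the lowest came without LacZ replicate 2, K815R replicate 1, K815Q replicate 1, WT replicate 2, WT replicate 1, K815Q replicate 1 and LacZ replicate 2. For the least counted genes, the counting error was 5.68% at the lowest Tcf21 count and 5.39% at the lowest Dpt count. The spread between replicates within a group was 5.12% to 6.26% for Dpt, near its counting error. For Tcf21 it was 3.35% with K815R but 9.34% to 14.7% in the other groups, above its counting error.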
